A study of Homo sapiens with 8 samples.

Results

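H3122-LR2 cells, a ceritinib-resistant derivative of the EML4-ALK lung adenocarcinoma line H3122, were compared after 6 h with 1000 nM ceritinib and after 6 h with 1000 nM crizotinib. The comparison rests on 2 of the 8 arrays of the study, chosen by their labelled line and agent, with 1 array for each drug. The other arrays serve beside it: untreated LR2 cells, ceritinib-treated and untreated cells of a further resistant derivative, H3122-LR3, and ceritinib-treated, crizotinib-treated and untreated parental H3122 cells. All 3 lines carry the EML4-ALK fusion and were grown in serum-containing medium without other agents named in the labels. Whether LR2 and LR3 are single clones, and how they were made resistant, is not given in the sources used here. Values are log2 array signals. Every drug difference below is ceritinib minus crizotinib, or drug minus untreated, on the log2 scale. The median difference of all genes tested was subtracted, except where values as deposited are named.

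EML4-ALK is a fusion kinase that signals without a ligand, mainly through the RAS, RAF, MEK and ERK cascade and through PI3K and AKT. Ceritinib and crizotinib are ATP-competitive inhibitors of ALK, and crizotinib also inhibits MET and ROS1. Active ERK raises transcription of a set of short-lived mRNAs, among them ETS factors, cyclin D1 and the pathway's own inhibitors, the dual-specificity phosphatases and the Sprouty and SPRED proteins. Active AKT keeps FOXO transcription factors out of the nucleus, so FOXO target mRNAs are commonly read as an inverse measure of that branch.

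All 6 epithelial markers (EPCAM, CDH1, KRT7, KRT8, KRT18 and KRT19) lay above the detection floor of 5.36 on every array, and so did 4 of 5 lung lineage markers (NKX2-1, SFTPB, NAPSA and SFTA3). None of 7 fibroblast markers passed the floor on any array, at most 1 of 6 leukocyte markers did (CD68, up to 5.44), and 2 or 3 of 6 endothelial markers did, at up to 6.52. The LR2 ceritinib array had a median probe set signal of 5.46, against 5.31 to 5.36 on the other 7 arrays, and centring removed 0.08 from the LR2 drug difference. The 3′ minus 5′ signal of the GAPDH controls was -0.12 to -0.04 over the 8 arrays. That of the actin controls was 0.13 on the LR2 ceritinib array and 0.26 on the LR2 crizotinib array, against 0.09 to 0.19 on the other 6, and its part in the results was not tested. No array was repeated, so the difference between the drugs in LR2 cells has no replicate check and carries no p-value.

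Of 10527 genes tested, 48 were at least 2-fold higher with ceritinib than with crizotinib in LR2 cells (0.456%) and 9 were at least 2-fold lower (0.0855%). At 1.5-fold the counts were 149 higher (1.42%) and 78 lower (0.741%). These 1.5-fold shares are the background for every list count between the drugs in LR2 cells below. The first group was led by DUSP6 (4.17), SPRY4 (3.34), SHISA2 (2.90), PHLDA1 (2.63), CCDC160 (2.61) and HMGA2 (2.34), of which 4 (DUSP6, SPRY4, PHLDA1 and HMGA2) belong to a list of ERK output genes. SHISA2 was at 1.52 as the mean of its probe sets, and 4 of 6 HMGA2 probe sets had the positive sign. SPRY4, SHISA2, CCDC160 and HMGA2 lay below the floor with crizotinib in LR2 cells, so the sizes of their differences are uncertain. DUSP5 (2.24), EPHA2 (2.17), CXCL8 (2.13), the tyrosine phosphatase gene PTPRE (2.11), the kinase gene PLK2 (2.01) and CCN2 (1.76) followed. FOSL2 (-1.34) and KLHL24 (-1.29) led the second group. The 2-fold boundary ran between CEBPD at 1.0 and ETV1 at 0.99, and between GCNT1 at -1.01 and GLCCI1 at -0.97.

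Untreated LR2 cells stood nearer to ceritinib-treated than to crizotinib-treated LR2 cells for all 48 higher and all 9 lower genes. Over all genes tested, the untreated array was nearer to ceritinib for 6433, nearer to crizotinib for 3712 and equally far for 382. The 48 higher genes had a median of -0.32 with ceritinib against untreated LR2 cells, and a median of -1.67 with crizotinib against the same array. The 9 lower genes had medians of 0.49 with ceritinib and 1.63 with crizotinib. These drug responses share the untreated LR2 array and, with the drug difference, the treated arrays, so they restate 3 levels per gene and do not test one another. In RNA from bulk cultures, fewer responding cells and a smaller response per cell cannot be told apart.

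Promoter sequence is shown for DUSP6, the gene with the largest drug difference, for EGR1, the gene furthest below untreated LR2 cells with ceritinib, and for KLHL24, the FOXO target with the largest difference in the other direction. Each run is the 250 bases before the RefSeq transcript start (GRCh38.p14), 5′ to 3′ on the gene's strand. Capitals mark matches, on either strand, to a CArG box, to ETS (CCGGAAGT), AP-1 (TGANTCA), CRE (TGACGTCA) or FOXO (GTAAACA) motifs. DUSP6 lies on the minus strand at chr12:89352502-89352751, EGR1 on the plus strand at chr5:138465229-138465478 and KLHL24 on the plus strand at chr3:183635373-183635622.
DUSP6: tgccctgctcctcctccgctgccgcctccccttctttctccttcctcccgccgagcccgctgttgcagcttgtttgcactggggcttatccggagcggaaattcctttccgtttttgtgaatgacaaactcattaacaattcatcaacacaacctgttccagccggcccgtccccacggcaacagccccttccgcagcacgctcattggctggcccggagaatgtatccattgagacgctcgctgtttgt
EGR1: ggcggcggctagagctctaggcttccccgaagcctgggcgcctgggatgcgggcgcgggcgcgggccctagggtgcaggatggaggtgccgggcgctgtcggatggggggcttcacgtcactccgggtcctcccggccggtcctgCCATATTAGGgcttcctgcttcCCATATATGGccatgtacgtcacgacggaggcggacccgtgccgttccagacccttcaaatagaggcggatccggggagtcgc
KLHL24: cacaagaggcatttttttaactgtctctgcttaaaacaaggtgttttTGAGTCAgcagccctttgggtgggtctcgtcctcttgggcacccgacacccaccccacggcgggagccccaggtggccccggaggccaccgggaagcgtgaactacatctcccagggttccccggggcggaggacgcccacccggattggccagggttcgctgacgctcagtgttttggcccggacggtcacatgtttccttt
EGR1 held 2 CArG boxes, the site bound by serum response factor. A CArG box occurred in 1.18% of the 27305 promoters in the RefSeq table and in 1.02% of 8733 promoters of tested genes. KLHL24 held 1 AP-1 match, a motif present in 6.74% of the RefSeq promoters and 4.18% of those of tested genes. DUSP6 held no match to the 5 motifs in this window. In the RefSeq promoters the other shares were 3.6% for ETS, 1.74% for CRE and 3.01% for FOXO. In those of tested genes they were 7.5% for ETS, 2.97% for CRE and 2.05% for FOXO. A match is a run of letters and not a shown binding site. Promoter entries were found for 30 of the 48 higher and 7 of the 9 lower genes, so no share over these groups is given.

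DUSP6, the phosphatase that dephosphorylates ERK itself, had a signal of 11.51 with ceritinib, 7.26 with crizotinib and 11.79 untreated in LR2 cells. LR3 cells gave 12.04 with ceritinib and 12.17 untreated. Parental cells gave 7.39 with ceritinib, 7.93 with crizotinib and 12.41 untreated. Ceritinib-treated LR2 cells thus stood with the untreated arrays of the 3 lines and with ceritinib-treated LR3 cells, and crizotinib-treated LR2 cells stood with the treated parental arrays.

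SPRY4, a feedback inhibitor of receptor signalling to RAS, showed the same grouping of arrays. Its signal in LR2 cells was 7.23 with ceritinib, 3.81 with crizotinib and 7.54 untreated, and in LR3 cells 7.35 with ceritinib and 7.52 untreated. In parental cells it was 4.08 with ceritinib, 3.81 with crizotinib and 7.07 untreated. The 3 low values lie below the floor, and 2 of the 3 SPRY4 probe sets had the positive sign, so the size of its difference is uncertain. PHLDA1, a pleckstrin homology protein induced by growth factors, had 8.19 with ceritinib, 5.48 with crizotinib and 8.92 untreated in LR2 cells. It had 8.98 with ceritinib and 9.13 untreated in LR3 cells, and 6.47 with ceritinib, 6.62 with crizotinib and 9.70 untreated in parental cells. Crizotinib-treated LR2 cells had the lowest PHLDA1 signal of the 8 arrays.

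**Figure D1:**
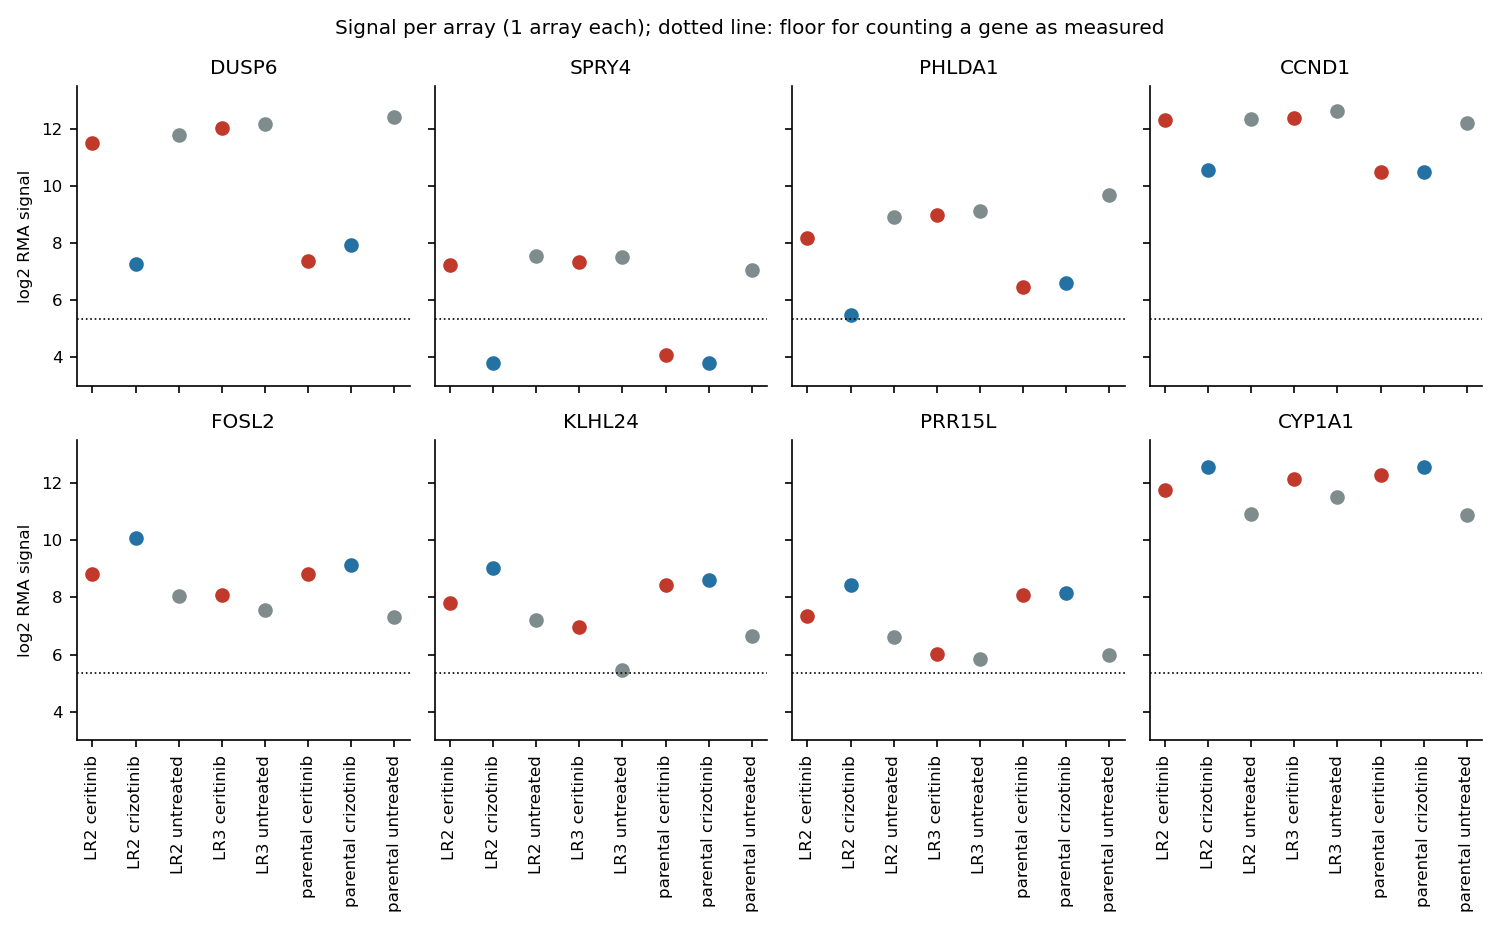
Log2 RMA signal of 8 genes (y axis) on the 8 arrays (x axis), 1 point per array, with ceritinib in red, crizotinib in blue and untreated in grey; the dotted line is the floor of 5.36. For DUSP6, SPRY4, PHLDA1 and CCND1 the LR2 ceritinib point lies near untreated cells and the LR2 crizotinib point near treated parental cells; for FOSL2, KLHL24, PRR15L and CYP1A1 the LR2 crizotinib point is the highest of the 3 LR2 points.

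The ERK output list held 24 tested genes, of which 18 were at least 1.5-fold higher with ceritinib than with crizotinib and 0 lower, with a median of 1.21 against 0.00 for all genes tested. ERK output was already known from these arrays to respond to ALK inhibitors, so the list is not independent evidence of its direction. Against untreated LR2 cells, 22 of the 24 were at least 1.5-fold lower with crizotinib (2.44% of all genes tested) and 3 with ceritinib (0.209%). Their median was -0.18 with ceritinib and -1.30 with crizotinib in LR2 cells. The corresponding medians were -0.12 with ceritinib in LR3 cells, and -1.69 with ceritinib and -1.60 with crizotinib in parental cells. The 3 genes lower with ceritinib in LR2 cells were PHLDA1 and PHLDA2 (each -0.83) and the ERK phosphatase DUSP5 (-0.71). With crizotinib they stood at -3.45 for PHLDA1, -2.09 for PHLDA2 and -2.94 for DUSP5.

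Feedback inhibitors of the pathway accounted for much of the list. DUSP5 differed by 2.24 and DUSP4, another ERK phosphatase, by 0.90. Among Sprouty and SPRED genes, whose products block RAS activation, SPRED1 differed by 1.54, SPRY2 by 1.35, SPRY1 by 1.09, SPRED2 by 0.73 (0.58 as the mean of its probe sets) and SPRED3 by 0.14. SPRY2 had 9.42 with ceritinib, 7.99 with crizotinib and 9.26 untreated in LR2 cells, 8.33 with ceritinib and 8.17 untreated in LR3 cells, and 7.03 with ceritinib, 7.07 with crizotinib and 8.58 untreated in parental cells. Ceritinib-treated LR2 cells had the highest SPRY2 signal of all arrays. ERRFI1, an inhibitor of EGFR family kinases, differed by 1.12, and it was lower than untreated with both drugs in LR2 cells (-0.52 with ceritinib and -1.63 with crizotinib).

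ETS factors of the PEA3 family split within the list. ETV5 had 7.97 with ceritinib, 6.19 with crizotinib and 8.04 untreated in LR2 cells, 7.57 with ceritinib and 7.67 untreated in LR3 cells, and 6.37 with ceritinib, 6.41 with crizotinib and 8.01 untreated in parental cells. Its drug difference in LR2 cells was 1.70, against 0.99 for ETV1 and 0.39 for ETV4, which did not reach 1.5-fold. The other list members short of 1.5-fold were the AP-1 subunit FOSL1 (0.40), EMP1 (0.41), the ETS factor ELK3 (0.55), SPRED3 and the ETS gene repressor CIC (0.14). CIC was 0.18 above untreated LR2 cells with ceritinib and 0.05 above them with crizotinib.

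EPHA2, an ephrin receptor kinase, had 6.90 with ceritinib, 4.65 with crizotinib and 7.05 untreated in LR2 cells, 7.35 with ceritinib and 7.46 untreated in LR3 cells, and 4.72 with ceritinib, 4.42 with crizotinib and 7.37 untreated in parental cells. The neutrophil chemokine CXCL8 had 7.80 with ceritinib, 5.59 with crizotinib and 8.53 untreated in LR2 cells, 9.24 with ceritinib and 9.76 untreated in LR3 cells, and 5.44 with ceritinib, 5.72 with crizotinib and 9.67 untreated in parental cells. For both genes, only the 3 arrays of crizotinib-treated LR2 and treated parental cells were low. Of 15 tested NF-kB and cytokine genes, 4 were at least 1.5-fold higher with ceritinib and 0 lower, and all 4 encode secreted signals or an enzyme that makes one: CXCL8 (2.13), LIF (1.45, but 0.65 as the mean of its probe sets), CXCL2 (1.19) and PTGS2 (0.86). Of 12 tested genes on a receptor tyrosine kinase list, which held neither EPHA2 nor EPHA4, 0 reached 1.5-fold (median -0.10). The ephrin receptor kinase gene EPHA4 was higher with ceritinib by 1.15. Of 8 growth factor genes 1 was higher (1.42% of all genes tested) and 0 were lower (0.741%). The NF-kB inhibitor gene NFKBIA differed by -0.09, and the NF-kB and cytokine list's median was 0.18.

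Of 21 tested extracellular matrix, integrin and protease genes, 5 were at least 1.5-fold higher with ceritinib and 0 lower. The 4 largest were the matrix metalloproteases MMP10 (1.17) and MMP1 (0.94), the collagen receptor subunit ITGA2 (0.88), and PLAU, the urokinase protease, at 0.68. Its receptor PLAUR also differed by 0.68, but by 0.07 without probe sets whose IDs mark possible cross-hybridization. MMP1 had 9.61 with ceritinib, 8.59 with crizotinib and 10.06 untreated in LR2 cells, 10.01 with ceritinib and 10.00 untreated in LR3 cells, and 9.12 with ceritinib, 9.16 with crizotinib and 10.67 untreated in parental cells. Its LR2 ceritinib signal lay between those of the crizotinib and untreated arrays.

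Immediate early genes responded unevenly. Of 20 tested, 5 were at least 1.5-fold higher with ceritinib than with crizotinib and 0 lower, with a median of 0.29, and the 4 largest were EGR1 and CCN2 (each 1.76), IER3 (1.44) and KLF10 (0.93). FOSB (-0.08), NR4A1 (0.03) and KLF4 (-0.19) differed little. EGR1, a zinc finger transcription factor, had 6.95 with ceritinib, 5.11 with crizotinib and 8.43 untreated in LR2 cells. It had 7.38 with ceritinib and 7.39 untreated in LR3 cells, and 4.41 with ceritinib, 5.0 with crizotinib and 8.82 untreated in parental cells. EGR1 was the 1 gene among the 48 that was at least 2-fold lower with ceritinib than in untreated LR2 cells (-1.58), and it was lower still with crizotinib (-3.33). As the mean of its 6 probe sets the EGR1 drug difference was 0.76, below 2-fold.

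CCND1, cyclin D1, had 12.30 with ceritinib, 10.57 with crizotinib and 12.35 untreated in LR2 cells, 12.39 with ceritinib and 12.61 untreated in LR3 cells, and 10.49 with ceritinib, 10.50 with crizotinib and 12.19 untreated in parental cells. All 4 CCND1 probe sets had the same sign, and these levels lie far above the floor. CCNE1, cyclin E1, had 6.93 with ceritinib, 5.16 with crizotinib and 6.84 untreated in LR2 cells. CCNE1 and the phosphatase gene CDC25A (0.81, but 0.57 as the mean of its probe sets) were at least 1.5-fold higher with ceritinib. They were 2 of 41 tested G1/S and replication genes (1.42% of all genes tested). The list's median was 0.11, and 0 members were lower (0.741%). Among 22 cyclins, CDK inhibitors and p53 targets, 4 were higher and 1 lower: PLK2 (2.01), CCND1 (1.65), GADD45A (1.02) and TIGAR (0.79, but 0.56 as the mean of its probe sets) were higher, and CDKN1B, the CDK inhibitor p27, was lower (-0.66, but -0.58 on values as deposited).

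Of 44 tested genes of MYC and ribosome biogenesis, 5 were at least 1.5-fold higher with ceritinib and 0 lower, with a median of 0.34 and a range of -0.20 to 0.78, and the 4 largest were UTP15 (0.78) and BYSL (0.71), both needed to assemble the small ribosomal subunit, PPAN (0.63) and MYC itself (0.62). MYC had 10.32 with ceritinib, 9.62 with crizotinib and 10.19 untreated in LR2 cells, 10.13 with ceritinib and 10.16 untreated in LR3 cells, and 9.28 with ceritinib, 9.28 with crizotinib and 10.22 untreated in parental cells. The crizotinib-treated LR2 signal for MYC lay between those of treated and untreated parental cells. Against untreated LR2 cells the list's median was -0.12 with ceritinib and -0.44 with crizotinib. NPM1 (-0.13), NCL (-0.10) and FBL (-0.07), abundant nucleolar proteins of the same list, did not differ by 1.5-fold.

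FOSL2, an AP-1 subunit, was the gene with the largest difference in the other direction, at 8.83 with ceritinib, 10.09 with crizotinib and 8.05 untreated in LR2 cells. It had 8.08 with ceritinib and 7.55 untreated in LR3 cells, and 8.83 with ceritinib, 9.15 with crizotinib and 7.33 untreated in parental cells. FOSL2 was higher than untreated with both drugs in LR2 cells, by 0.68 with ceritinib and 2.03 with crizotinib. The other 7 genes beside FOSL2 and KLHL24 were KCNE3 (-1.18), a potassium channel subunit, PRR15L (-1.17), CREBRF (-1.16), a regulator of the CREB3 family, the epithelial ETS factor ELF5 (-1.13), NPTX1 (-1.12), YPEL2 (-1.04) and the glycosyltransferase gene GCNT1 (-1.01). NPTX1 had 1 of 2 probe sets of that sign and -0.47 as their mean, and the other 8 genes had all probe sets of that sign. Short of 2-fold were CREBRF (-0.80) and YPEL2 (-0.76) as the mean of their probe sets, and YPEL2 (-0.96) and GCNT1 (-0.93) on values as deposited. KCNE3 lay below the floor with ceritinib (5.0) and untreated (4.63) in LR2 cells.

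Of 22 tested FOXO targets and PI3K feedback genes, 0 were at least 1.5-fold higher with ceritinib than with crizotinib and 6 were lower, with a median of -0.27. KLHL24, a ubiquitin ligase adaptor, had 7.82 with ceritinib, 9.03 with crizotinib and 7.21 untreated in LR2 cells, 6.96 with ceritinib and 5.46 untreated in LR3 cells, and 8.45 with ceritinib, 8.60 with crizotinib and 6.64 untreated in parental cells. All 3 drug-free signals were below every drug-treated signal of their own line. FBXO32, the ubiquitin ligase atrogin-1, differed by -0.92, with 6.52 with ceritinib, 7.36 with crizotinib and 5.78 untreated in LR2 cells, 6.68 with ceritinib and 5.49 untreated in LR3 cells, and 8.32 with ceritinib, 8.37 with crizotinib and 6.53 untreated in parental cells. HBP1, a repressor of cell cycle genes (-0.73), and CDKN1B (-0.66) followed. The PI3K-linked genes IRS2 (0.21) and TXNIP (-0.14), and the receptor genes ERBB3 (-0.28) and IGF1R (-0.23), did not reach 1.5-fold, and IGF1R gave 0.03 as the mean of its probe sets.

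Against untreated LR2 cells, the FOXO list had a median of 0.26 with ceritinib and 0.60 with crizotinib. At least 1.5-fold higher than untreated were 1 of 22 members with ceritinib (0.218% of all genes tested) and 11 with crizotinib (2.1%). In LR3 cells ceritinib gave a median of 0.22, with 6 members at least 1.5-fold higher (0.465%). In parental cells the medians were 0.56 with ceritinib and 0.53 with crizotinib.

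Of 38 tested G2/M and mitosis genes, 0 reached 1.5-fold in either direction, with a median of -0.21 and a range of -0.47 to 0.11. NEK2, a centrosome kinase, differed by -0.47 and was 0.23 above untreated with ceritinib and 0.71 above it with crizotinib. The list's median against untreated was 0.12 with ceritinib and 0.37 with crizotinib in LR2 cells, and 0.34 with ceritinib and 0.38 with crizotinib in parental cells.

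Targets of the aryl hydrocarbon receptor, a sensor of planar aromatic compounds, had the lowest list median, -0.36. Of 10 tested, 2 were at least 1.5-fold lower with ceritinib (0.741% of all genes tested). CYP1A1, its best known target, had 11.77 with ceritinib, 12.57 with crizotinib and 10.91 untreated in LR2 cells, 12.16 with ceritinib and 11.53 untreated in LR3 cells, and 12.27 with ceritinib, 12.58 with crizotinib and 10.87 untreated in parental cells. Each drug-treated array was above the untreated array of its line, with crizotinib above ceritinib in both lines given both. The receptor's repressor AHRR had 9.28 with ceritinib, 9.84 with crizotinib and 8.72 untreated in LR2 cells, a difference of -0.64 (-0.36 as the mean of its probe sets), and 9.34 with ceritinib, 9.36 with crizotinib and 8.40 untreated in parental cells.

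Squamous, basal and stress keratin genes had a median of 0.25 over 11 tested members, none of them 1.5-fold higher with ceritinib. SOX2, a lineage transcription factor of this list, was lower (-0.70, but -0.58 as the mean of its probe sets), with 10.41 with ceritinib, 11.03 with crizotinib and 9.99 untreated in LR2 cells, 9.69 with ceritinib and 9.61 untreated in LR3 cells, and 11.26 with ceritinib, 11.10 with crizotinib and 9.91 untreated in parental cells. SOX2 was above untreated in every array with a drug, by 0.07 to 1.33.

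**Figure D2:**
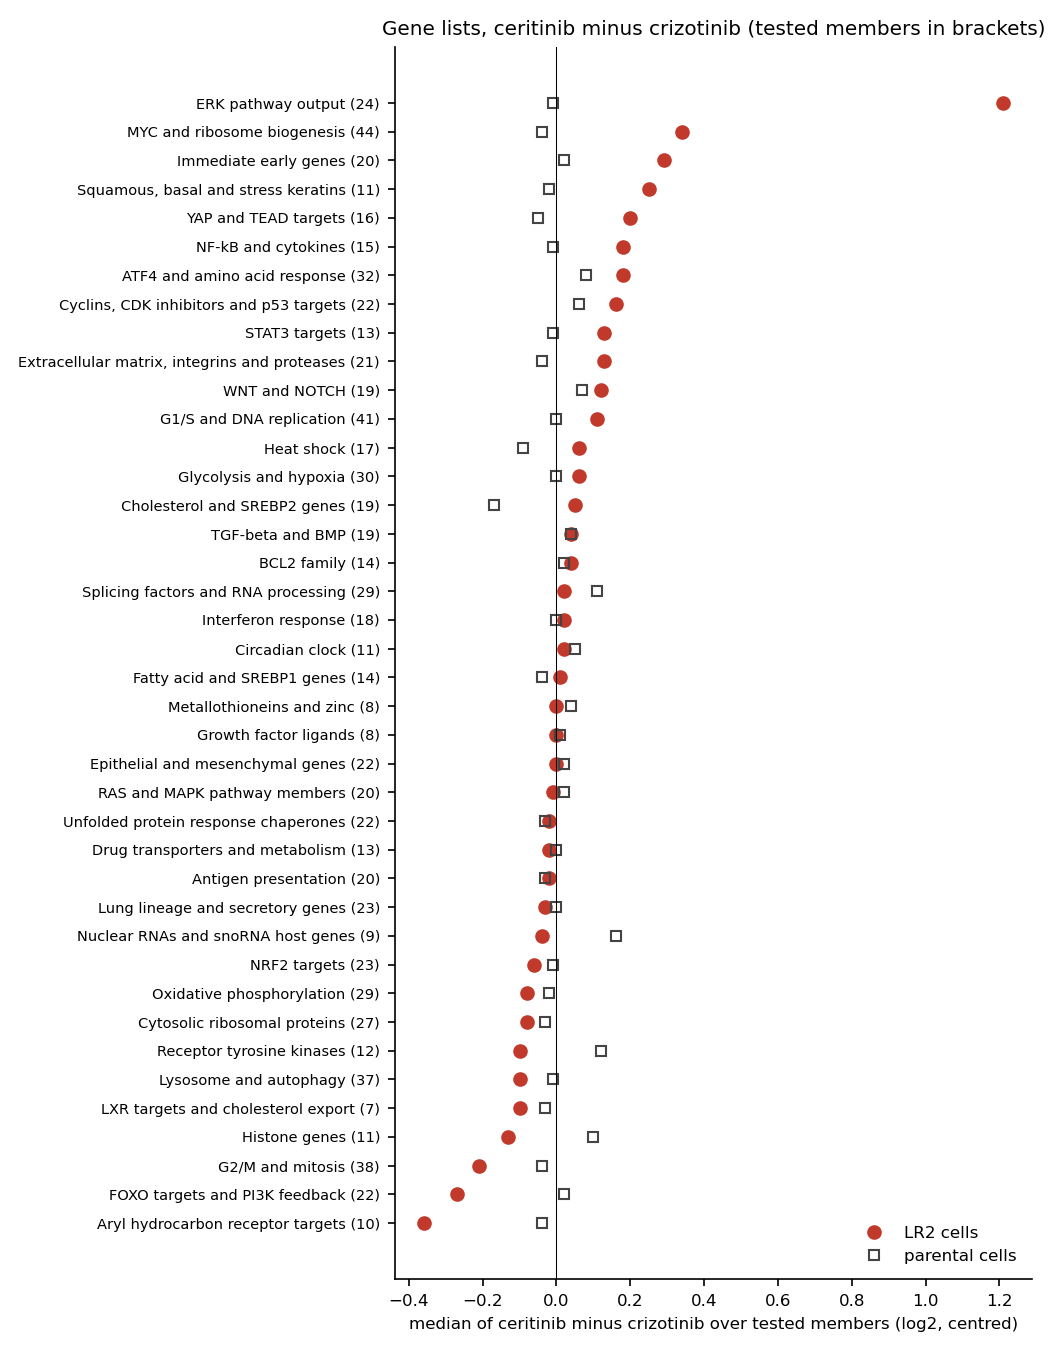
Median of ceritinib minus crizotinib (x axis, log2, centred) over the tested members of each of 40 gene lists (y axis, with the number of tested members), in LR2 cells (filled circles) and parental cells (open squares). ERK pathway output stands apart at 1.21 in LR2 cells and -0.01 in parental cells, and 24 lists lie within 0.1 of 0 in LR2 cells.

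Of 40 lists with at least 5 tested members, 24 had a median within 0.1 of 0 in LR2 cells, 4 lay above 0.2 and 3 below -0.2. Cholesterol synthesis genes differed by a median of 0.05 with 0 of 19 members at 1.5-fold, and HMGCS1 (0.11) and INSIG1 (-0.19) were among them. Unfolded protein response chaperones (-0.02, 0 of 22), oxidative phosphorylation genes (-0.08, 0 of 29) and cytosolic ribosomal proteins (-0.08, 0 of 27) also held no such member. Amino acid response genes controlled by ATF4 had a median of 0.18. Of 32 members, 3 were higher (1.42% of all genes tested): TRIB3 (0.66), STC2 and CHAC1 (each 0.60). After quantile normalization STC2 (0.58) and CHAC1 (0.56) fell short of 1.5-fold. ATF3 (0.32) and ASNS (0.22) of that list did not reach 1.5-fold. Among 16 YAP and TEAD targets, CCN2 (1.76) and F3 (0.79) were higher (1.42% of all genes tested) and 0 were lower (0.741%).

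ALK, its fusion partner EML4 and the receptor genes FGFR3 and MET did not differ by 1.5-fold between the drugs in LR2 cells. ALK had 8.55 with ceritinib, 8.41 with crizotinib and 8.47 untreated in LR2 cells, 8.09 with ceritinib and 8.10 untreated in LR3 cells, and 7.23 with ceritinib, 7.39 with crizotinib and 7.19 untreated in parental cells. All 3 LR2 signals lay above all LR3 and parental signals, and 1 of the 2 ALK probe sets had the positive sign of the 0.06 difference. EML4 differed by 0.00, FGFR3 by 0.07 and MET, a crizotinib target, by 0.42. EGFR and INSR were too dim to test. Among 14 BCL2 family genes, the pro-apoptotic PMAIP1 was higher with ceritinib (0.74), and BCL2L11, encoding the pro-apoptotic protein BIM, had -0.52 (-0.23 as the mean of its probe sets) and MCL1, an anti-apoptotic member, 0.24.

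A choice of genes that used no LR2 array gave the drug responses of LR2 cells separately. In parental cells, 0.94% of all genes tested were at least 2-fold lower than untreated with ceritinib and 0.845% with crizotinib, and 76 genes were so with both. At least 2-fold higher were 0.541% with ceritinib and 0.551% with crizotinib, and 39 genes with both. In LR2 cells the 76 genes had a median of -0.36 with ceritinib, with 2 at least 2-fold lower (0.019% of all genes tested), and a median of -1.42 with crizotinib, with 58 at least 2-fold lower (0.703%). LR3 cells gave a median of -0.16 with ceritinib, with 0 at least 2-fold lower (0%). The 39 genes had medians of 0.36 with ceritinib and 1.04 with crizotinib in LR2 cells, and 0.36 with ceritinib in LR3 cells. Of these 39, 0 were at least 2-fold higher with ceritinib in LR2 cells (0%), 23 with crizotinib in LR2 cells (0.456%) and 4 with ceritinib in LR3 cells (0.038%).

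**Figure D3:**
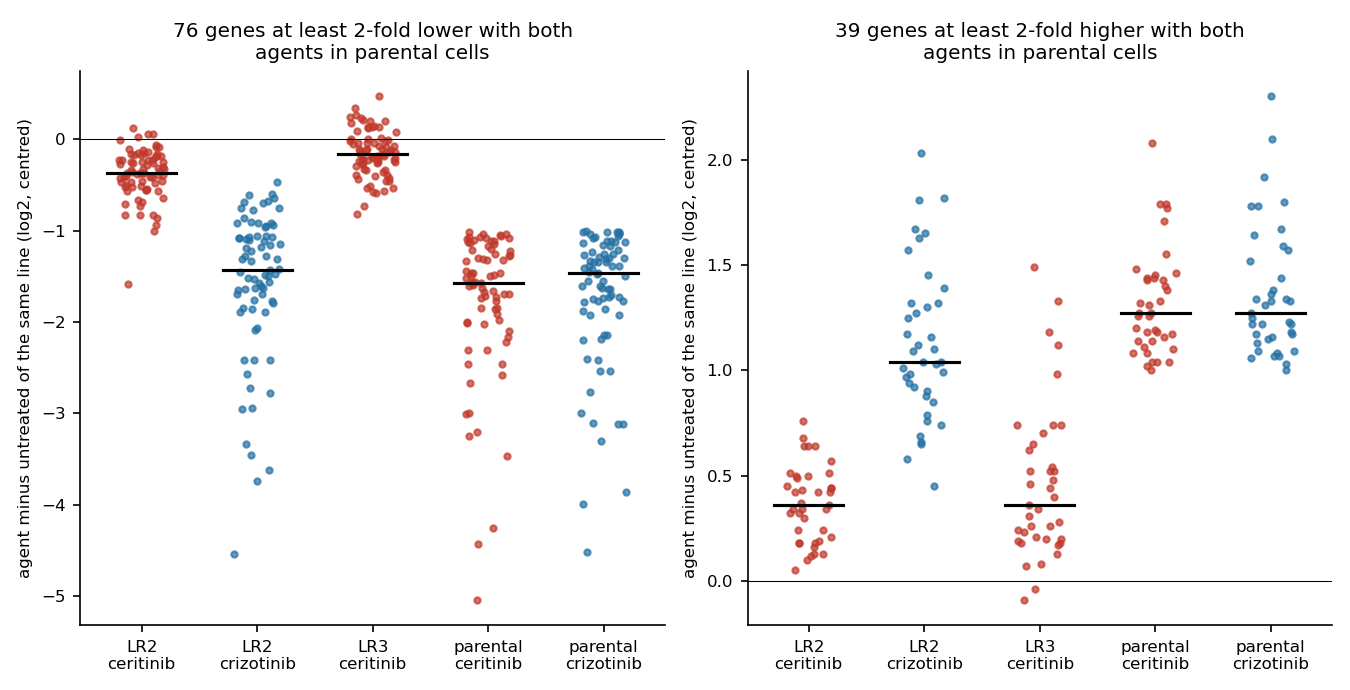
Drug minus untreated of the same line (y axis, log2, centred) for the 76 genes lower (left) and 39 genes higher (right) with both drugs in parental cells; each point is a gene, the bar is the median, ceritinib is red and crizotinib blue. The parental points chose the genes; the LR2 medians were -0.36 with ceritinib and -1.42 with crizotinib on the left, and 0.36 with ceritinib and 1.04 with crizotinib on the right.

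Over all 10527 genes, and with no array in common, the crizotinib response of LR2 cells had a slope of 0.72 on that of parental cells (Pearson r 0.78), and the ceritinib response a slope of 0.26 (r 0.49). The LR3 ceritinib response had a slope of 0.22 on the parental one (r 0.40). The drug difference in LR2 cells had a slope of -0.49 on the parental crizotinib response (r -0.69) and of -0.03 on the parental drug difference (r -0.02). These are descriptions across genes, which are not independent replicates.

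**Figure D4:**
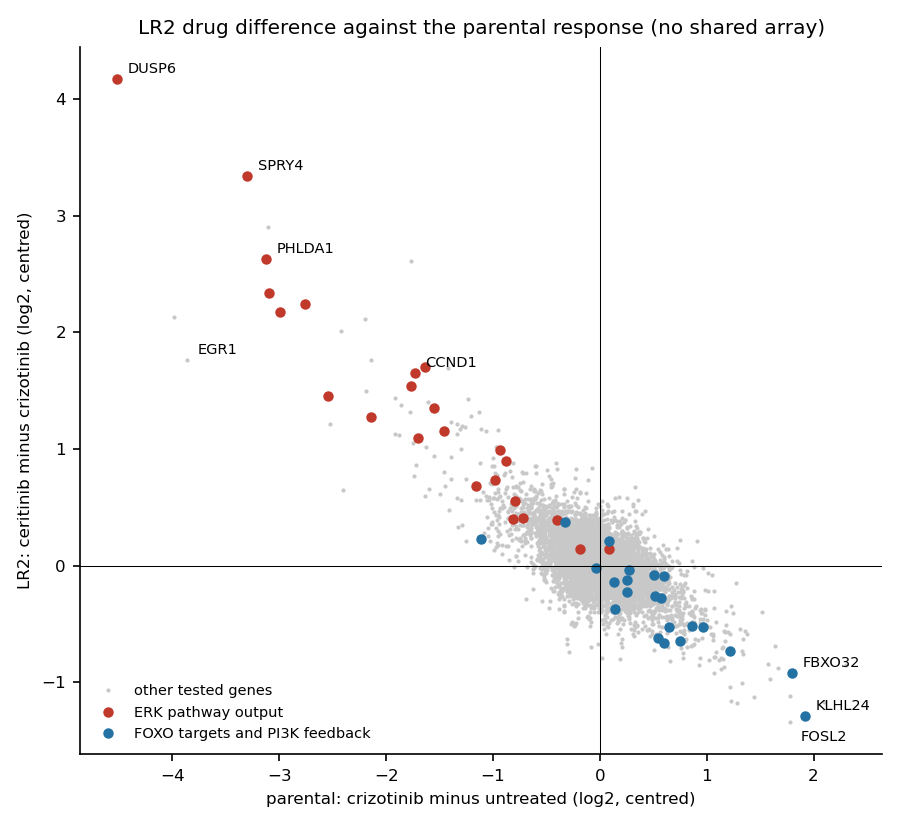
Ceritinib minus crizotinib in LR2 cells (y axis) against crizotinib minus untreated in parental cells (x axis), both log2 and centred, with 1 point per tested gene; ERK output genes are red and FOXO and PI3K feedback genes blue. DUSP6 lies at the upper left, at 4.17 and -4.52, and FOSL2 and KLHL24 at the lower right.

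Ceritinib itself left few differences from untreated LR2 cells, with 45 genes at 1.5-fold (0.427%) against 478 with crizotinib (4.54%). After EGR1, the lowest against untreated were ITPR1, the inositol trisphosphate receptor (-1.0), MYOZ1 (-0.97), the TWEAK receptor gene TNFRSF12A (-0.94) and the EGR1 corepressor gene NAB2 (-0.86), named here after their values were seen. In LR2 cells ITPR1 had 5.41 with ceritinib, 4.68 with crizotinib and 6.31 untreated. TNFRSF12A had 7.69 with ceritinib, 6.48 with crizotinib and 8.53 untreated, and NAB2 had 5.81 with ceritinib, 5.40 with crizotinib and 6.57 untreated. For these 3 genes the ceritinib signal lay between those of the crizotinib and untreated arrays. The highest against untreated were UBN2 (0.96 with ceritinib and 1.03 with crizotinib) and CSAD (0.93 with ceritinib and 0.62 with crizotinib).

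In parental cells the drugs differed at 2-fold for 2 genes, both higher with ceritinib (0.019%), and for 0 lower (0%). CSAD (1.17) and AHSA2P (1.08) were those genes, and they differed by 0.32 and 0.05 in LR2 cells. None of the 57 genes past 2-fold in LR2 cells reached 1.5-fold in parental cells, where 39 of all genes tested did (0.37%). Over the 48 genes higher with ceritinib in LR2 cells, the parental drug difference had a median of -0.02 and a range of -0.56 to 0.55. Parental cells thus had both drugs near 1 level for genes that separated them in LR2 cells, as CCND1 shows with 10.49 with ceritinib and 10.50 with crizotinib.

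Across both lines together, limma's additive model of line and agent called 0 of 10527 genes between ceritinib and crizotinib (0%) at an adjusted p under 0.05, and 637 had an unadjusted p under 0.05. On values as deposited, ID1, an inhibitor of basic helix-loop-helix factors, had the smallest adjusted p. Its limma difference was 0.76 ± 0.12 (SE, adjusted p = 0.656), and it was higher with ceritinib in 2 of 2 lines. The LR3 arrays also enter that estimate, and the centred ID1 differences were 0.78 in LR2 and 0.57 in parental cells. Without the parental ceritinib array the same model called 401 genes, 316 higher and 85 lower. That fit had ceritinib only in LR2 and LR3 cells, so its count is not a drug difference across both lines. A term for the LR2 ceritinib array beyond line and agent, added after the data were seen, also called 0 genes (0%), with 868 at an unadjusted p under 0.05. DUSP6 had its smallest adjusted p in limma, with a term of 4.63 ± 0.10 (SE, adjusted p = 0.225) on 1 residual degree of freedom. With quantile normalization this term called 160 genes, and with the mean of all probe sets 283.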

How the data were processed

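RNA of 8 cultures was hybridised to single-colour arrays, 1 array each, per the labels. The deposited table holds log2 signals per probe set, and the submitters' processing notes name RMA; its software, and which arrays were normalized together, are not given in the sources used here. Of 49395 probe sets, 44988 that are not controls had 1 gene symbol in the platform table, and 18132 genes were each represented by the probe set with the highest mean signal. Genes were tested when this exceeded 5.36, the 50th percentile of all values, in at least 2 arrays (10527 genes), and 7605 were too dim. Single-array differences were centred on the median of the tested genes, counted at 2-fold for genes and 1.5-fold for list members, and given without p-values; the number of arrays limits the precision. limma 3.58.1 (R 4.3.3) fitted line and agent to uncentred values of 8 arrays (3 residual degrees of freedom). Its p-values measure only spread between these arrays. The code was tested on simulated data. Genes and the 43 lists were chosen with earlier results of these data known. Named were the 12 largest differences each way past 2-fold with at least as many probe sets of that sign as of the other, up to 4 members of a list past 1.5-fold, and a set of receptor, ERK, apoptosis and stress genes named whether or not they passed a threshold; further list members were named after their values were seen. Alternatives varied scaling, probe set choice, the dim-gene filter, the fold and the arrays fitted.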

Additional observations from a re-analysis of the deposited data

Results flagged for a closer look

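Of 93 named genes checked for this, 8 had drug differences in opposite directions in LR2 and in parental cells, by at least 0.30 in each. Each direction rests on 1 array per drug. Only 2 of the 8, DUSP6 and CDC25A, were above the floor in all arrays. For SHISA2, CCDC160, DUSP5, CCN2, EGR1 and CXCL2, the parental signals with ceritinib and with crizotinib all lay below the floor. The direction and size of the parental difference are therefore uncertain for those genes. Limma's added term sets the LR2 ceritinib array against the sum of line and agent, and does not directly test this difference between the lines. The term was called for 0 of the 8 on centred values, for 8 after quantile normalization and for 7 with the mean of all probe sets. It was called for none of those tested under the other 5 alternatives, and the term rests on the 1 LR2 ceritinib array. DUSP6 had 4.17 in LR2 cells and -0.51 in parental cells. SHISA2 had 2.90 in LR2 cells and -0.35 in parental cells, and CCDC160 had 2.61 in LR2 cells and -0.32 in parental cells. DUSP5 and CCN2 each had -0.43 in parental cells, beside 2.24 for DUSP5 and 1.76 for CCN2 in LR2 cells. EGR1 had 1.76 in LR2 cells and -0.56 in parental cells. CXCL2 had 1.19 in LR2 cells and -0.34 in parental cells, and CDC25A had 0.81 in LR2 cells and -0.30 in parental cells. EPHA4, named above but not among the 93 checked, also met the rule, with 1.15 in LR2 cells and -0.51 in parental cells. Its parental signal with ceritinib (4.87) lay below the floor.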

How the results depend on the processing

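The count of 57 genes past 2-fold between ceritinib and crizotinib in LR2 cells stayed within 1.5 times under 5 of 9 alternatives (39 to 66 genes). It was 23 without probe sets whose IDs mark possible cross-hybridization, which left 3036 genes to test, and 32 (27 higher and 5 lower) when signals had to exceed the floor in all arrays, a filter that removes genes below the floor on any array. It was 227 at 1.5-fold (149 higher and 78 lower) and 16 at 3-fold, all higher. The share of higher genes was 84.2% as reported, 65.6% at 1.5-fold and 100% at 3-fold. The FOXO list's median was -0.12 without the cross-hybridization suffixes (10 members tested), and the squamous list's was 0.06 without the filter on dim genes (21 members); the other 36 alternatives for the 7 lists furthest from 0 moved by less than the spread between arrays. Of 463 alternatives for 93 named genes, 448 moved by less than that spread, and no difference past 1.5-fold changed sign. For lists and genes, this spread is the residual SD of the additive model over the 8 arrays, not a spread of repeats. It holds the LR2 ceritinib departure itself and is wide where that is large (DUSP6 1.76, ERK output list 0.611). Counts of moves below it are therefore a weak check. The mean of all probe sets ended the 2-fold call of 6 named genes, among them EGR1, LIF (0.65) and CREBRF (-0.80), and the 1.5-fold call of 8. These counts, and the 463 alternatives, leave out named genes that were no longer tested under a setting. SPRY4 was not tested with the mean of all probe sets, and DUSP6 was not tested without the cross-hybridization suffixes. Without the cross-hybridization suffixes LIF gave 0.84 and CEBPD 0.65. The additive limma count was 0 to 401 when 1 array was left out, with 401 without the parental ceritinib array, and 0 under all other alternatives run. Without that array only LR2 cells had both drugs, so 401 is not a count across both lines. The added term called 160 genes after quantile normalization and 283 with the mean of all probe sets, and 0 under the other 5 alternatives; the cause was not tested. The additive model pairs the drugs by line; no block by replicate number was possible because each condition has 1 array. Signals below the floor, as for 19 of the 48 higher genes with crizotinib, leave the size of the difference uncertain.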

Other observations

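A few genes departed from untreated LR2 cells with ceritinib and less so with crizotinib, and these were picked after their values were seen. JUP, the desmosome and adherens junction protein plakoglobin, had 7.99 with ceritinib, 8.50 with crizotinib and 8.67 untreated in LR2 cells, 8.94 with ceritinib and 8.99 untreated in LR3 cells, and 8.48 with ceritinib, 8.56 with crizotinib and 8.46 untreated in parental cells. MYOZ1 had 4.73 with ceritinib, 5.39 with crizotinib and 5.60 untreated in LR2 cells, and between 5.37 and 5.62 in LR3 and parental cells, close to the floor of 5.36. TMC6 had 6.51 with ceritinib, 6.92 with crizotinib and 7.15 untreated in LR2 cells, and 6.75 with ceritinib, 6.82 with crizotinib and 7.03 untreated in parental cells. Of the 8 TMC6 probe sets, 4 had the negative sign of its LR2 drug difference (-0.49). Each signal given for these genes comes from 1 array.

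ID1 was higher with ceritinib than with crizotinib in both lines given both drugs. It had 10.28 with ceritinib, 9.42 with crizotinib and 10.59 untreated in LR2 cells, 10.72 with ceritinib and 10.72 untreated in LR3 cells, and 10.11 with ceritinib, 9.57 with crizotinib and 10.49 untreated in parental cells. TCIM had 6.22 with ceritinib, 4.94 with crizotinib and 6.06 untreated in LR2 cells, and 5.20 with ceritinib, 4.68 with crizotinib and 5.93 untreated in parental cells. Its signals with crizotinib in LR2 cells and with either drug in parental cells lay below the floor. The sizes of the TCIM differences, and the direction in parental cells, are therefore uncertain. TXNIP, whose mRNA follows glucose supply, separated the drugs in parental cells (-0.79) and not at 1.5-fold in LR2 cells (-0.14).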
